A study of Mus musculus with 8 samples.

Results

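The subunits of NF-kB and the genes that hold the factor back were followed on 8 arrays of mouse stromal and fibroblast lines. The members were the 10 genes Nfkb2, Rel, Rela, Relb, Nfkbia, Nfkbie, Nfkbiz, Bcl3, Tnfaip3 and Tnip1, chosen by their symbol in the annotation of the array out of 18194 genes that could be named. They were read by 19 probe sets (a probe set is a group of short oligonucleotides on the Affymetrix Mouse 430 2.0 array that together report a transcript), and 9 of the members reached an intensity of 100 on at least 2 arrays and could be tested among 10084 genes. The values were normalized intensities on a linear scale, in arbitrary units that can be compared between arrays for a given probe set but not between probe sets.

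The arrays fell into 4 groups of 2, called biological replicates in the labels. OP9 cells (mouse bone marrow stroma, strain B6C3F1) were compared with OP9 cells that had been kept together with 230-238 cells, a pre-B cell line. NIH3T3 (mouse embryonic fibroblasts) and MC3T3 (osteoblast-like cells), both given as strain Balb/c, were the other lines. The study's methods describe OP9 cells carrying the red protein mStrawberry from a retrovirus, a co-culture of a week, a sort for red cells afterwards, and control OP9 cells kept in medium taken from the parallel co-culture. OP9 cells grew in OptiMEM and the other lines in DMEM, so line and medium cannot be told apart when OP9 is set against NIH3T3 or MC3T3. The RNA came from 2000 cells per array. The study averages its OP9 values over separate experiments, the labels do not describe the cultures behind the other replicates, and 1 MC3T3 array is described as sorted cells, so a p-value here reflects the variation from array to array, which outside OP9 may be technical.

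NF-kB is a family of dimeric transcription factors that wait in the cytoplasm bound to inhibitors of the I-kappa-B family. In the canonical arm, cytokine and Toll-like receptors lead to destruction of I-kappa-B-alpha (Nfkbia) and release dimers that hold RelA. In the non-canonical arm, a smaller set of receptors stabilises the kinase NIK (Map3k14), which leads to the processing of the p100 product of Nfkb2 and release of dimers that hold RelB. Many of the genes that the factor switches on encode its own brakes, among them I-kappa-B proteins and the ubiquitin-editing protein A20 (Tnfaip3).

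Promoter sequences of the members are shown because several of these genes are known to be driven by the factor that they regulate. RefSeq windows (build GRCm38.p6, 250 bases before to 50 after a gene start) were given for 8 of the 10 members, and those of Relb and Nfkbiz were not among them. The kB consensus, the pattern of 10 letters to which NF-kB dimers bind, was searched on both strands, where a palindromic match counts on each strand and neighbouring matches can overlap. It was found in a window of 7 of the 8 members, beside 9.55% of all genes of the table. By windows, 9 of 11 of the members held it, beside 8.46% of all 32851. All 3 windows of Nfkb2 are among the 9, and those of its later starts overlap and share a match. In the Rela window no match to these letters was seen. The stretches below run 5′ to 3′ on the strand of the gene with the matched bases in capitals. They lie at chr19:46304678-46304755 on the + strand (Nfkb2, the first of its 3 starts), chr12:55492647-55492696 on the - strand (Nfkbia), chr17:45555574-45555623 on the + strand (Nfkbie), chr7:19822736-19822773 on the - strand (Bcl3), chr10:19015393-19015555 on the - strand (Tnfaip3), chr11:54962967-54963018 on the - strand (Tnip1) and chr11:23771031-23771081 on the - strand (Rel).
Nfkb2: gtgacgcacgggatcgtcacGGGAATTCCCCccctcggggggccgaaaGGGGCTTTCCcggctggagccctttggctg
Nfkbia: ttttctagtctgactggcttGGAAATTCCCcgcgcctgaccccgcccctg
Nfkbie: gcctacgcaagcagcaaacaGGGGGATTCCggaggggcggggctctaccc
Bcl3: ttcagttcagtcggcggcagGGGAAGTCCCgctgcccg
Tnfaip3: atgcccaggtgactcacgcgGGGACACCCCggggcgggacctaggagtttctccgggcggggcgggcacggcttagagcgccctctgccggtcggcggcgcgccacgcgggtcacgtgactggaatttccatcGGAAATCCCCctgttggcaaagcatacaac
Tnip1: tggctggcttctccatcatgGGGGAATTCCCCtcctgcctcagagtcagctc
Rel: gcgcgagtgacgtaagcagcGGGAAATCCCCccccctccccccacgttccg
The first matched base lay 29 bases before the start of Nfkbia, 106 before that of Nfkbie and 92 before that of Rel. In Bcl3 the match began at the 3rd base of the gene itself. Nfkb2 held matches from -39 and -11 at its first start, Tnfaip3 from -125 and -12, and Tnip1 a run of overlapping matches from -58, all counted from the gene start. The window of another Tnfaip3 start held no match. A match is a description of the sequence, and binding was not measured.

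Co-culture of OP9 cells with pre-B cells was compared with the OP9 group to ask how the stromal cell differs beside the lymphoid cell. The titles of these arrays name the cells but not virus, sort or medium, so whether these differed between the groups is not known. Of the 9 members tested, 6 were higher in co-culture by at least 2-fold at an adjusted p below 0.05 in limma (linear models across all genes), namely Nfkb2, Relb, Nfkbia, Nfkbie, Bcl3 and Tnfaip3. None was lower. Over all genes tested, 2.71% were called higher and 2.97% lower. Rela, Nfkbiz and Tnip1 differed by less than 2-fold, and Rel stayed under the minimum on every array. In the order of all 10084 genes by log2 difference upwards, Nfkbie was at place 5, Bcl3 at 15, Tnfaip3 at 30, Nfkb2 at 47, Relb at 112 and Nfkbia at 159.

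**Figure D1:**
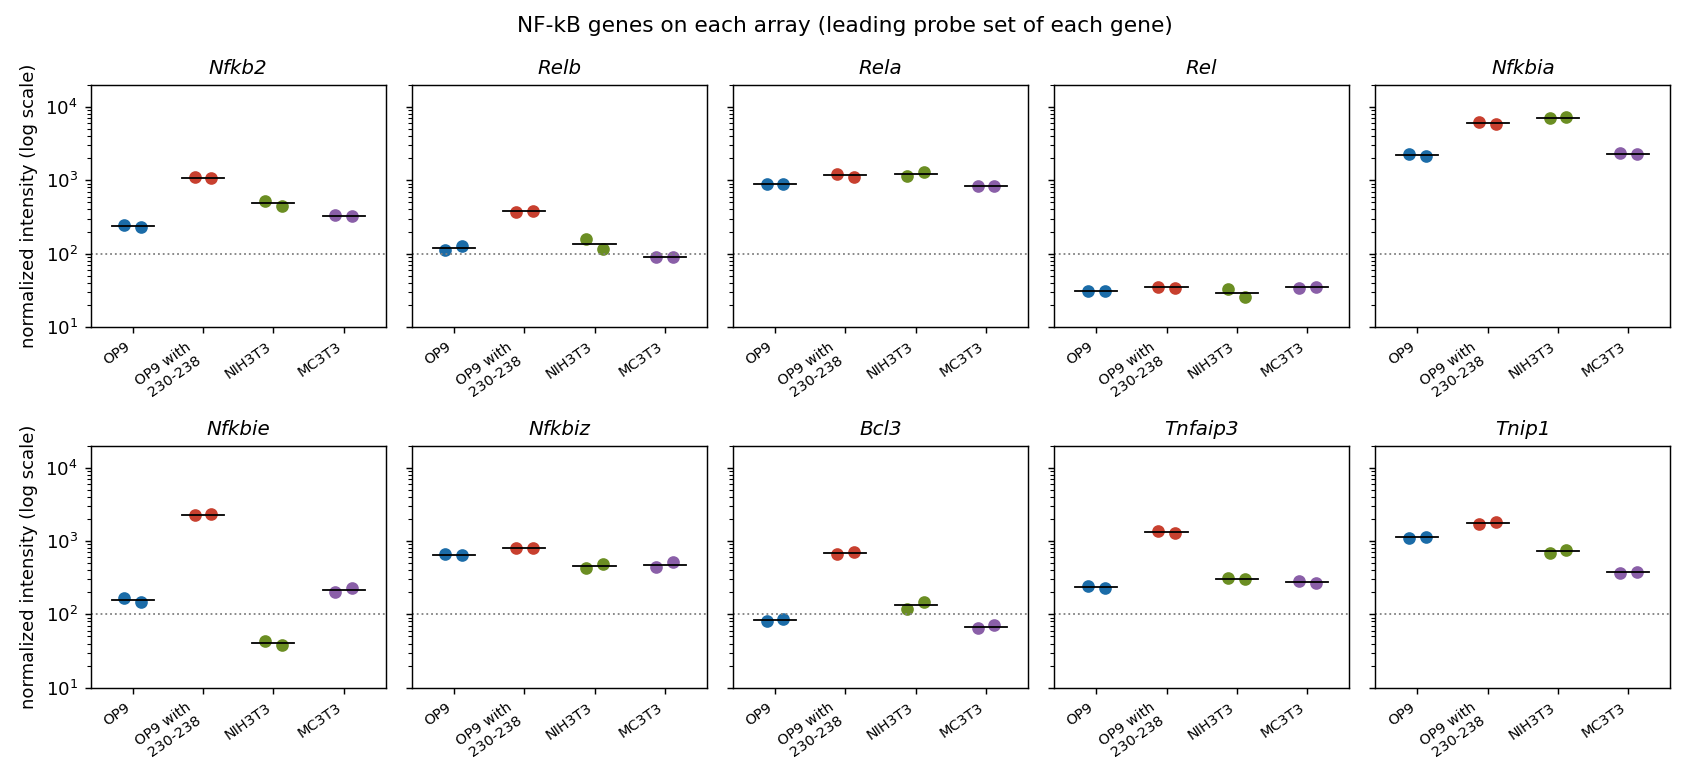
Normalized intensity (log scale, arbitrary units) of the leading probe set of each of the 10 genes on the 8 arrays, with a point for each array, a bar at the group mean and a dotted line at the minimum of 100. Nfkbie read 2282 and 2315 in co-culture against 167 and 149 in OP9 cells, while Rel was between 25.4 and 35.3 on all arrays.

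Among the subunits, Nfkb2, which encodes the p100 precursor of p52, read 1096 and 1074 on the co-culture arrays, 246 and 234 on the OP9 arrays, 522 and 444 on the NIH3T3 arrays and 331 and 324 on the MC3T3 arrays. On this, its leading probe set, both co-culture arrays were above all others and no 2 groups overlapped. In co-culture it was 4.52-fold higher than in OP9 (log2 difference 2.18 ± 0.09, SE, limma adjusted p = 3.75e-06).

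The other subunit of the non-canonical arm, Relb, encodes the partner of p52. It read 374 and 383 in co-culture and 112 and 126 in OP9 cells. NIH3T3 cells had 158 and 116 and MC3T3 cells 89.3 and 90.0. Co-culture was the top group, whereas OP9 and NIH3T3 overlapped. The rise in co-culture was 3.19-fold (log2 difference 1.67 ± 0.14, SE, limma adjusted p = 9.27e-05).

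Rela encodes the main activating subunit of the canonical arm. It read 1201 and 1126 in co-culture, 887 and 895 in OP9 cells, 1145 and 1287 in NIH3T3 cells and 831 and 828 in MC3T3 cells. Co-culture overlapped with NIH3T3 and lay above OP9 and MC3T3. The difference from OP9 was 1.31-fold (log2 0.39, 95% interval 0.20 to 0.57, limma adjusted p = 0.00627), above the spread between the arrays but under the minimum fold.

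Rel encodes c-Rel, a subunit best known from lymphoid cells. Its only probe set read 35.3 and 34.0 in co-culture, 31.2 and 31.3 in OP9 cells, 33.0 and 25.4 in NIH3T3 cells and 34.3 and 34.7 in MC3T3 cells. All of these values lay under 41.8, the lowest median of an array, and no level can be read from them. In a fit without a minimum the difference between co-culture and OP9 was 0.15 on the log2 scale (95% interval -0.14 to 0.44, limma adjusted p = 0.478).

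Among the inhibitors, Nfkbie (I-kappa-B-epsilon) showed the widest range. It read 2282 and 2315 in co-culture, 167 and 149 in OP9 cells, 202 and 231 in MC3T3 cells and 42.7 and 37.6 in NIH3T3 cells. The co-culture arrays stood far above the others and the NIH3T3 arrays lay under their own array medians, with no overlap between any groups. Co-culture was 14.6-fold above OP9 (log2 difference 3.87 ± 0.10, SE, limma adjusted p = 6.68e-07). The second probe set, which passed the minimum through the co-culture arrays alone, read 742 and 809 against 74.6 and 62.8 in OP9 cells.

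Nfkbia, the I-kappa-B-alpha that is resynthesised after each round of activation, was, with Rela, a member for which co-culture did not stand alone. Its leading probe set read 6160 and 5952 in co-culture and 2308 and 2165 in OP9 cells. MC3T3 cells gave 2348 and 2285, while NIH3T3 cells gave 7032 and 7220. Co-culture and NIH3T3 formed a high pair and OP9 and MC3T3 an overlapping low pair. The rise in co-culture over OP9 was 2.71-fold (log2 difference 1.44 ± 0.07, SE, limma adjusted p = 6.95e-06).

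Bcl3 encodes a nuclear I-kappa-B protein that binds p50 and p52 homodimers and so belongs to both arms. It read 676 and 699 in co-culture against 80.0 and 85.6 in OP9 cells, 120 and 146 in NIH3T3 cells and 65.7 and 70.5 in MC3T3 cells. The minimum of 100 was reached on the 4 arrays of co-culture and NIH3T3 only, and no groups overlapped. Co-culture was 8.31-fold above OP9 (log2 difference 3.05 ± 0.10, SE, limma adjusted p = 1.69e-06).

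Nfkbiz, another nuclear I-kappa-B protein, known as a cofactor at secondary response genes, read 814 and 814 in co-culture on its leading probe set. OP9 cells gave 660 and 647, MC3T3 cells 436 and 514 and NIH3T3 cells 425 and 481. The co-culture arrays were the highest and MC3T3 and NIH3T3 overlapped. The 1.25-fold difference between co-culture and OP9 (log2 0.32, 95% interval 0.09 to 0.55, limma adjusted p = 0.0351) did not reach the minimum fold, and its sign was not shared by the other probe sets of the gene.

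The ubiquitin-editing brakes behaved unequally. Tnfaip3 (A20) read 1371 and 1269 in co-culture, 244 and 226 in OP9 cells, 310 and 300 in NIH3T3 cells and 287 and 270 in MC3T3 cells. Only co-culture stood apart by more than 2-fold from any other group. It was 5.61-fold above OP9 (log2 difference 2.49 ± 0.08, SE, limma adjusted p = 1.18e-06).

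Tnip1 encodes ABIN-1, a ubiquitin-binding partner of A20. It read 1699 and 1792 in co-culture, 1101 and 1140 in OP9 cells, 688 and 761 in NIH3T3 cells and 364 and 384 in MC3T3 cells. No groups overlapped, and the order ran from co-culture through OP9 and NIH3T3 to MC3T3. In co-culture it was 1.56-fold above OP9 (log2 0.64, 95% interval 0.46 to 0.82, limma adjusted p = 0.000578), which passed the test but not the minimum fold.

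Read on its own and adjusted over 18720 probe sets, a member's probe set was called higher in co-culture in 12 of 18 cases, where 2.43% of all these probe sets were called higher. These include the second probe set of Nfkbie, which could only be tested because it was high in co-culture and so had to differ. All 5 probe sets of Nfkbia were called, with 2.34 to 3.86-fold differences. Both of Tnfaip3 were called at 5.61 and 3.59-fold. Every probe set of these genes was thus higher in co-culture. For Nfkbie the leading probe set was called at 14.6-fold and the second differed by 11.3-fold.

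The probe sets of Nfkb2 and Nfkbiz disagreed in size or in sign. For Nfkb2, 1425902_a_at rose 4.52-fold, while 1429128_x_at, of a class that can bind related transcripts, read 288 and 295 against 167 and 212 and differed by 1.55-fold (log2 0.63, 95% interval 0.32 to 0.95, limma adjusted p = 0.00997). With the mean of its probe sets in place of the leading probe set, the log2 difference of Nfkb2 was 1.40. For Nfkbiz, 1457404_at read 362 and 337 in co-culture and 621 and 647 in OP9 cells, and was 1.82-fold lower in co-culture (log2 -0.86, 95% interval -1.30 to -0.42, limma adjusted p = 0.0107). The remaining probe set, 1448728_a_at, overlapped between these groups, with 183 and 208 against 205 and 197. No direction can therefore be given for Nfkbiz in co-culture, and its log2 difference was -0.20 with the mean of its probe sets.

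**Figure D2:**
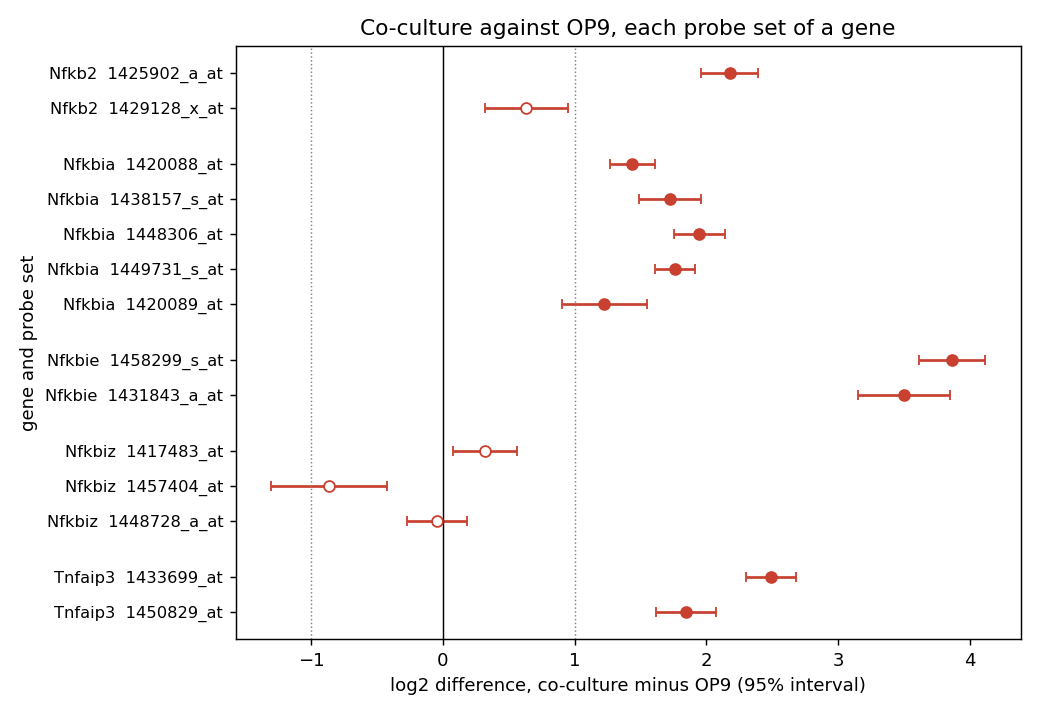
Log2 difference between co-culture and OP9 cells for every probe set of the 5 genes with more than 1, with 95% intervals from limma. Filled points were called, open points were not, and dotted lines mark 2-fold. The probe sets of Nfkbia, Nfkbie and Tnfaip3 all lie to the right of the upper line, whereas those of Nfkbiz lie on both sides of 0.

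Set side by side, the arms did not divide into a high and a low group. In the non-canonical arm both tested members were called, Nfkb2 at 2.18 (95% interval 1.97 to 2.38) and Relb at 1.67 (1.35 to 1.996) on the log2 scale. In the canonical arm 3 of 6 were called, Nfkbie at 3.87 (3.63 to 4.10), Tnfaip3 at 2.49 (2.31 to 2.67) and Nfkbia at 1.44 (1.28 to 1.60). Rela, Nfkbiz and Tnip1 remained between 0.32 and 0.64. The median log2 difference was 1.93 in the non-canonical arm and 1.04 in the canonical arm, beside -0.05 over all genes. Among the subunits the intervals of Nfkb2 and Relb lay above that of Rela for the leading probe sets, while that of 1429128_x_at of Nfkb2 (0.32 to 0.95) overlapped with it, and among the inhibitors that of Nfkbie lay above those of both non-canonical subunits.

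RNA of lymphoid cells was looked for beside these results. The summed intensity of 12 pre-B cell markers was 717 and 680 in co-culture, 554 and 539 in OP9 cells and 762 and 801 in NIH3T3 cells, with 1 marker (Ighm) at 100 in co-culture and in OP9 cells alike. Vpreb1, part of the surrogate light chain, read 77.7 and 76.0 against 25.8 and 21.6, and Cd79a, Pax5 and Rag1 were under 100 on every array. The sum of 9 leukocyte markers was 770 and 763 against 454 and 471, where Coro1a read 116 and 125 against 25.9 and 23.9 and reached the minimum in co-culture alone. Ptprc (CD45) read 34.6 and 31.1 against 8.93 and 8.58. Sums of macrophage markers (386 and 420 against 410 and 443) overlapped. The sums of pre-B and leukocyte markers were thus higher in co-culture than in OP9 cells, at low intensities. The pre-B sum was higher still in NIH3T3 cells, where Blnk read 132 and 232 and Igll1 144 and 102. None of the 3 tested pre-B markers was called in co-culture against OP9, but this cannot decide on pre-B RNA. Blnk and Igll1 reached the minimum in NIH3T3 cells alone and Ighm did so in every group. Vpreb1 stayed under the minimum and was not tested. The part of these markers in the differences of the NF-kB genes was not tested. Of 9 stromal fibroblast markers, 7 had a mean of at least 100 in co-culture, 6 in both OP9 and NIH3T3 and all 9 in MC3T3. Col1a1, Col1a2 and Vim were above 2000 on all arrays, whereas Lum and Thy1 were under 100 in all groups but MC3T3. Dcn read 156 and 187 in co-culture against 51.2 and 48.9 in OP9 cells, a 3.42-fold rise (limma adjusted p = 1.23e-05). Alpl, Sp7 and Ibsp, markers of bone-forming cells, were each under 100 also in MC3T3 cells.

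Between the lines the share of members called was close to or under that of all genes, so these calls describe single members. Against NIH3T3, OP9 cells had 1 member higher and 2 lower of the 9 tested, where 20.5% of all genes were higher and 10.3% lower. Nfkbie was at least 3.54-fold higher, a bound set by the medians of the NIH3T3 arrays because its NIH3T3 values lay under them. Its limma adjusted p of 1.05e-06 belongs to the measured values, not to the bound. The second probe set, at 25.4 and 34.0 in NIH3T3 cells, gave a bound of at least 1.54-fold. Nfkbia was 3.19-fold lower (log2 difference -1.67 ± 0.07, SE, limma adjusted p = 3.02e-07). These inhibitors thus ran in opposite directions between these lines.

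Nfkb2 was the third, with an OP9 level 2.01-fold under that of NIH3T3 cells (log2 difference of Nfkb2, OP9 against NIH3T3, -1.004 ± 0.09, SE, limma adjusted p = 2.09e-05), right at the minimum fold. The call was lost at -0.94 with arrays scaled to their medians, at -0.96 with a pseudocount of 16, at -0.50 with the mean of its probe sets, at -0.89 without NIH3T3 replicate 1 and at -0.97 without OP9 replicate 2. On its own, 1429128_x_at of Nfkb2 overlapped between these lines, with a log2 difference of 0.009 (limma adjusted p = 0.954).

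Against MC3T3, OP9 cells had 1 member higher and none lower, where 10.5% of all genes were higher and 9.41% lower. The member was Tnip1, 3.00-fold higher (log2 difference 1.58 ± 0.08, SE, limma adjusted p = 1.26e-06). Another 6 members had adjusted p below 0.05 at less than 2-fold, with folds between 1.18 and 1.38, where 66.6% of all genes passed on the adjusted p alone. The probe set 1457404_at of Nfkbiz was 4.67-fold higher in OP9 than in MC3T3 cells on its own (limma adjusted p = 4.26e-05), while the leading one differed by 1.38-fold.

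MC3T3 cells against NIH3T3 cells had 1 member higher and 1 lower, where 17.8% of all genes were higher and 9.65% lower. Nfkbie was at least 4.85-fold higher (limma adjusted p = 4.34e-07 for the measured values), with at least 1.77-fold on the second probe set. Nfkbia was 3.08-fold lower (limma adjusted p = 4.36e-07). Bcl3 and Tnip1, both 1.94-fold lower, came just short of the minimum fold. They passed it after quantile normalization, with log2 differences of -1.06 and -1.06, and without NIH3T3 replicate 1, with -1.10 and -1.02. Nfkbiz changed its sign under 4 alternatives and has no direction here.

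**Figure D3:**
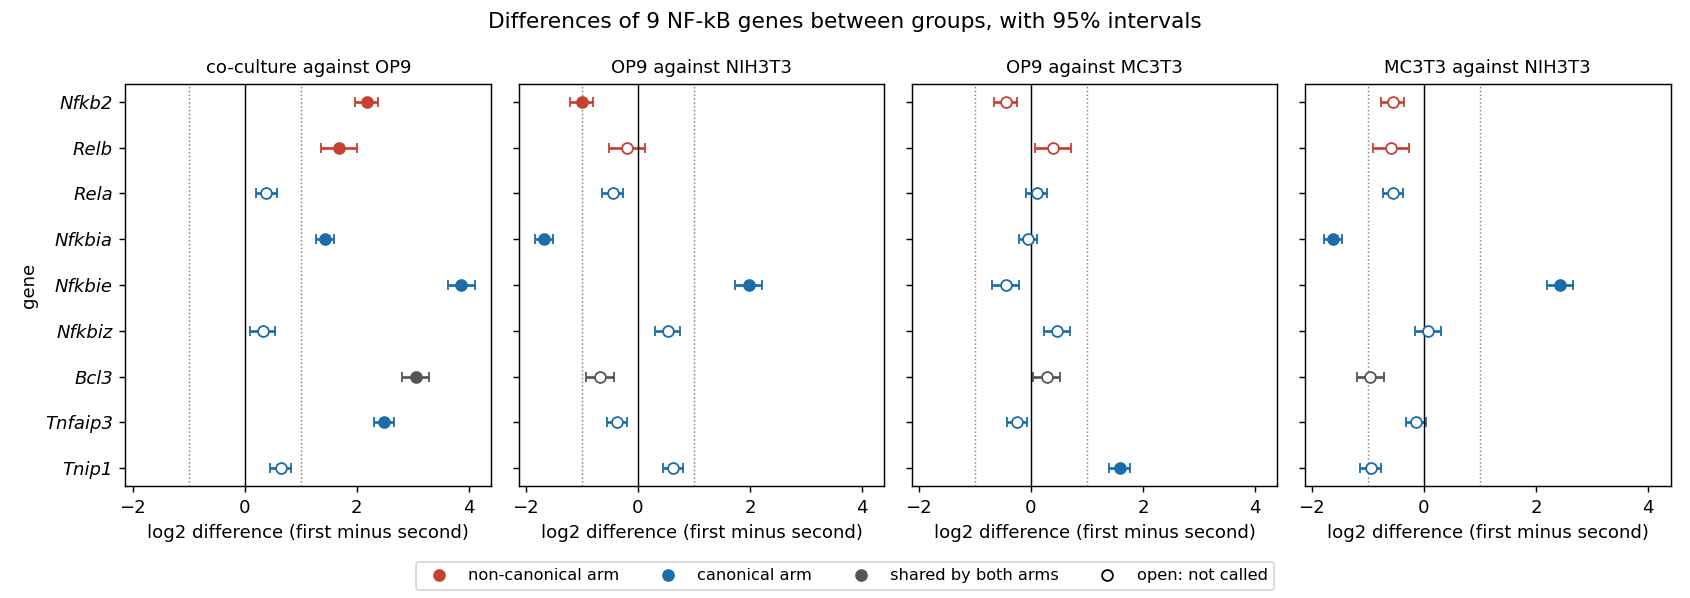
Log2 differences of the 9 tested genes in the 4 comparisons, first group minus second, with 95% intervals from limma. Colours mark the arms, filled points were called, open points were not, and dotted lines mark 2-fold. The first panel holds 6 filled points, all to the right, and the panels between lines hold 3, 1 and 2. The OP9 arrays enter 3 of the panels, so these share data.

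Co-culture and NIH3T3 cells shared a high level of Nfkbia but not of the other brakes. Nfkbie was at least 51.7-fold higher in co-culture than in NIH3T3 cells, and at least 17.4-fold on the second probe set. Its limma adjusted p of 5.51e-09 belongs to the measured values of the leading probe set. Bcl3 was 5.20-fold and Tnfaip3 4.32-fold higher (limma adjusted p = 4.48e-07 and 1.84e-07). Relb was 2.80-fold, Tnip1 2.41-fold and Nfkb2 2.25-fold higher (limma adjusted p = 2.88e-05, 2.76e-06 and 9e-06). The second probe set of Nfkb2, 1429128_x_at, differed by 1.56-fold (limma adjusted p = 0.0035), under the minimum fold. Nfkbia itself was 1.18-fold lower in co-culture on its leading probe set (limma adjusted p = 0.0139). Of its 5 probe sets, 3 had NIH3T3 on top and 2 co-culture, so the order of these groups is not settled for Nfkbia. Rela overlapped between them (95% interval of the log2 difference -0.24 to 0.12).

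The surrounding pathway was described by lists of genes. Of 17 tested kinases and adaptors of the canonical arm none was called in co-culture, against 2.71% of genes higher and 2.97% lower, and 8 had an adjusted p below 0.05 in limma, as did 42.8% of all genes. Traf2, which links TNF receptors to the kinases, was closest with a 1.84-fold difference (log2 0.88, limma adjusted p = 0.000353). The kinase subunits read 533 and 553 (Ikbkb) and 511 and 525 (Ikbkg) in co-culture, beside 676 and 682 and 523 and 506 in OP9 cells. None of 10 other negative regulators, Cyld and Tnip2 among them, and neither of the IKK-related kinases Tbk1 and Ikbke was called. Cyld and Tnip2 had differences of 1.28 and 1.60-fold (limma adjusted p = 0.0118 and 0.00311). Nfkbib, which encodes I-kappa-B-beta, read 359 and 426 against 378 and 385 and overlapped between the groups, and Nfkbid was under 32 on all arrays. The median log2 difference was 0.07 in the list of canonical kinases and adaptors and 0.03 in that of other negative regulators.

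In the non-canonical arm, 2 of 3 tested kinases and adaptors were called higher in co-culture, beside 2.71% of all genes. Birc3 read 968 and 1084 in co-culture against 244 and 225 in OP9 cells, a 4.37-fold rise (limma adjusted p = 4.15e-06). Birc2 read 1152 and 1122 against 415 and 382, a 2.86-fold rise (limma adjusted p = 6.9e-06). Both encode cIAP ubiquitin ligases, known to mark NIK for destruction. Map3k14, which encodes NIK, read 205 and 176 against 124 and 98.3 and was 1.72-fold higher (limma adjusted p = 0.00273), under the minimum fold.

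Of the receptors that feed the non-canonical arm, 2 of 5 were tested and 1 was called lower, beside 2.97% of all genes. Tnfrsf12a, the receptor of TWEAK, was lower in co-culture at 396 and 418 against 1021 and 1079, a 2.58-fold difference (limma adjusted p = 4.82e-05). Ltbr, the lymphotoxin-beta receptor, read 676 and 746 against 857 and 953 and was 1.27-fold lower (limma adjusted p = 0.0227). Cd40, Tnfrsf11a and Tnfrsf13c were under 50 on all arrays. Of 6 receptors of the canonical arm 1 was called higher, beside 2.71% of all genes, and none lower. It was Il1r1, the signalling receptor of interleukin-1, at 2124 and 1971 against 702 and 657 (3.01-fold higher, limma adjusted p = 2.59e-05). None of 9 ligands, Tnf, Ltb and Il1b included, reached the minimum in any group.

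Of 17 tested targets of the canonical arm, 7 were higher and 1 lower in co-culture, beside 2.71% higher and 2.97% lower over all genes. Ccl5 was 25.0-fold, Ccl7 11.2-fold and Ccl2 10.7-fold higher, all chemokines that draw leukocytes, and Icam1, an adhesion molecule, was 6.97-fold higher. The others were Irf1, Birc3, which stands in both lists, and Traf1, which reached the minimum in co-culture alone and so had to differ. Ccl5 in OP9 cells, with a mean of 46.4, lay close to the array medians. Lcn2 was 3.44-fold lower, at 60.6 and 54.8 against 194 and 202 in OP9 cells. It reached the minimum in OP9 cells alone and so also had to differ. The median log2 difference of the targets was 0.63, beside -0.05 over all genes. Cxcl12, the only tested target of the non-canonical arm, did not pass the test (log2 -0.16, limma adjusted p = 0.177).

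**Figure D4:**
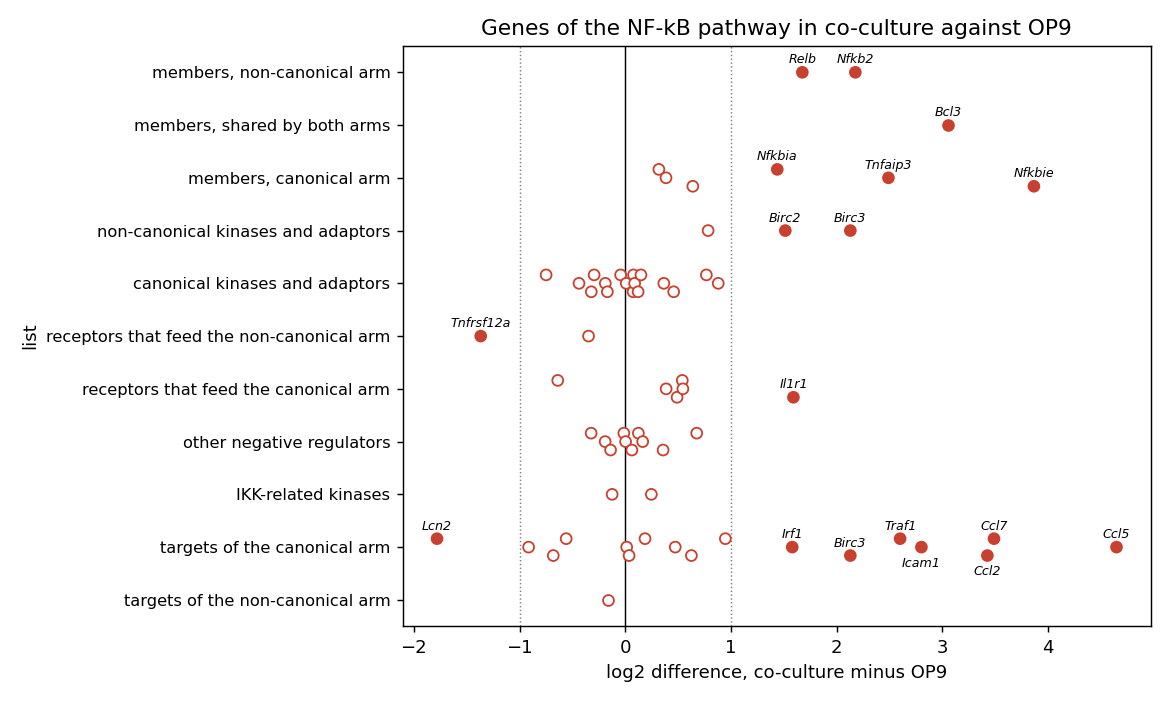
Log2 differences between co-culture and OP9 cells for the tested genes of each list, members included, with filled and named points for called genes, open points for the rest and dotted lines at 2-fold. The 17 canonical kinases and adaptors and the 10 other negative regulators are all open, while 6 members and 7 canonical targets lie to the right of the upper line. Birc3 is drawn in both lists that hold it.

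The genes whose levels ran most like those of 3 members over the 8 arrays were listed by Pearson correlation of log2 values among 10083 genes. Since the arrays are 4 groups of 2, such a value describes little more than the order and spacing of 4 groups. Nfkbia was most like Ccl7 (r = 0.9985), followed by Hnrnpc, Tgfbi, Parp9 and Procr. Ccl7 had a mean of 1869 in co-culture and 2654 in NIH3T3 cells, beside 167 in OP9 and 205 in MC3T3 cells. Nfkb2 was most like Ccl5 (r = 0.983), then Trip10, Ggt6, Extl1 and Sfxn1. Relb was most like Igtp (r = 0.985), an interferon-induced GTPase, then Zfp61, Ceacam15, Cd248 and Mycn. The mean of Igtp was 417 in co-culture, 141 in OP9, 175 in NIH3T3 and 124 in MC3T3.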

How the data were processed

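RNA of 8 samples was measured on Affymetrix Mouse 430 2.0 arrays. The values that the authors deposited are intensity after normalization, not on a log scale, for 45101 probe sets, and every column was used. The study names RMA Express, affylmGUI and dChip, but which of them wrote this table is not stated in what was read here. Annotation of the platform gave a single symbol to 34958 probe sets (the only ones used), several symbols to 932 and none to 9211. Analysis was on log2 values without a pseudocount. Each gene was represented by the probe set of highest average log2 value and kept if it reached 100 on 2 arrays or more. Array medians lay between 41.8 and 45.0, and 34.3 to 36.3% of probe sets reached 100 per array. The number of arrays limits the precision.

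Means of the 4 groups were fitted with limma 3.58.1 in R 4.3.3 (4 residual degrees of freedom, eBayes, p adjusted by Benjamini and Hochberg over all genes), and calls required both an adjusted p under 0.05 and a difference of 2-fold or more. The fit was tested on simulated data with known changes. The members and the lists were chosen with earlier results of these data known. All members are named, with up to 4 called genes per list by fold, all genes of the lists of other subunits and of non-canonical kinases and receptors, and the 5 genes most like Relb, Nfkb2 and Nfkbia. Other genes of a list named as examples were chosen after their values were seen. In total 20 alternatives of scaling, filter, pseudocount, probe set choice, fit and left-out arrays were run. The comparisons of co-culture with NIH3T3 and MC3T3 were added after seeing the data. Promoter windows came from RefSeq.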

Additional observations from a re-analysis of the deposited data

How the results depend on the processing

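In co-culture against OP9 the count of members called was 6 in the main fit and between 6 and 9 over 20 alternatives, 6 each time 1 array was left out, and the 6 called members, each read by the highest probe set that the alternative admitted or by the mean of its probe sets, kept their direction and their call in all of them. Leaving out 1 array gave 2 to 3 members in OP9 against NIH3T3, 1 to 1 in OP9 against MC3T3 and 2 to 4 in MC3T3 against NIH3T3, where 4 came without NIH3T3 replicate 1. With no minimum fold the counts were 8, 7 and 7 in these comparisons, by construction. Quantile normalization gave 4 in MC3T3 against NIH3T3, and the mean of probe sets gave 2 in OP9 against MC3T3. Counts over all genes moved by over 1.5 times under each probe set on its own (18720 tested) and with no minimum fold. These were 1004 and 4314 against 572 for all genes called, co-culture against OP9, then 6107 and 7855 against 3106 for all genes called, OP9 against NIH3T3, then 3764 and 6713 against 2011 for all genes called, OP9 against MC3T3, and 5569 and 7542 against 2767 for all genes called, MC3T3 against NIH3T3.

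Signs turned only in small differences. The log2 difference of Nfkbiz, MC3T3 against NIH3T3, was -0.050 after quantile normalization and -0.53 with the mean of probe sets, against 0.066, and ran from -0.054 (without MC3T3 replicate 2) to 0.19 with 1 array left out, with -0.024 without NIH3T3 replicate 1. With the mean of probe sets it was -0.20 for Nfkbiz in co-culture against OP9 and 0.13 for Nfkbia in OP9 against MC3T3. The log2 difference of Relb, OP9 against NIH3T3, ran from -0.41 to 0.032, the latter without NIH3T3 replicate 1, and the log2 difference of Rela, co-culture against NIH3T3, from -0.15 to 0.023, the latter without NIH3T3 replicate 2. The cause was not tested.

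With a replicate block the counts of members called were 6, 3, 1 and 2 in the 4 comparisons and no call of a member changed. Deviations of same-numbered arrays correlated between -0.004 and 0.181, the highest being OP9 with MC3T3. With 2 arrays a group, this cannot decide whether same-numbered samples share more than a number. The median absolute log2 difference between the arrays of a group was 0.143 in NIH3T3 and 0.0686 to 0.0885 in the other groups.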
